A study of Homo sapiens with 6 samples.

Results

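The genes described here are the C2H2 zinc finger genes of the numbered ZNF series that A549 cells expressed. They are the rows of the expression table whose symbol is ZNF followed by a number and whose mean over the 6 libraries was at least 2 FPKM (read counts scaled by gene length and library depth). Members were thus chosen by symbol and mean FPKM, and this kept 177 of the 420 ZNF-numbered genes in the table and of 29476 genes in all. The rule used the level averaged over both groups, so the level is a description here and not a result. A gene near the bound can pass through the group in which it is higher. All 177 are protein-coding and all passed the low-count filter of the test. A549 is a human lung adenocarcinoma line, and in every sample it was grown in RPMI-1640 and transfected with Lipofectamine 3000. The 3 si-NC libraries come from cells given a negative control siRNA, and the 3 si-NORAD libraries from cells given an siRNA against NORAD, a long noncoding RNA. No untransfected cells were analysed here, and the sources used here give neither the siRNA sequence nor the time of harvest. The libraries carry the numbers 4, 5 and 6 in each group. The labels do not say whether the numbers are separate cultures, so p-values cover the spread among these libraries alone, and that spread may be technical.

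C2H2 zinc finger proteins bind DNA, and sometimes RNA or protein, through short modules in which a pair of cysteines and a pair of histidines hold a zinc ion. Many human members carry a KRAB domain, which recruits the co-repressor TRIM28 and with it SETDB1, an H3K9 methyltransferase, and the HP1 proteins encoded by CBX genes. KRAB zinc finger proteins are best known for silencing transposable elements, and their genes lie in clusters, of which the densest are on chromosome 19. NORAD is a cytoplasmic RNA with many binding sites for the Pumilio proteins, which shorten the life of messenger RNAs that carry the same site in the 3' untranslated region.

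Total counts ran from 19332334 to 32760606 per library. NORAD, the targeted gene, measured 549.5, 461 and 423 CPM (counts scaled to the depth of the library, with edgeR's TMM factors) in si-NC 4, 5 and 6 and 359, 372 and 399.6 CPM in si-NORAD 4, 5 and 6. All 3 si-NORAD libraries were lower, at a log2 fold change of -0.34 and an adjusted p of 0.196 (edgeR's quasi-likelihood test with Benjamini-Hochberg adjustment, as for all adjusted p-values below unless another tool is named). This is 0.79 times the control level, a modest fall. The value was -0.23 without si-NC 4 and -0.55 without si-NC 5 and si-NC 6. For NORAD itself si-NC 4 was the control farthest from the si-NORAD libraries. The library si-NC 4 stood apart from si-NC 5 and si-NC 6 and lay nearer to the si-NORAD libraries in its balance of short and long genes, so values without it, or without the 2 other controls, are given beside the results they move. The extraction text of the labels speaks of retinas. Of 10 retina markers 8 were in the table and 7 of these were under 0.5 FPKM. The other, OPN1SW, had a mean of 3.91 FPKM, and the list summed to between 3.54 and 4.89 FPKM in si-NC and between 4.50 and 5.42 FPKM in si-NORAD. The 6 epithelial markers of A549 summed to between 1204.5 and 1691 FPKM in si-NC and between 1219 and 1272 FPKM in si-NORAD, led by KRT7 at a mean of 479 FPKM. Summed levels of the fibroblast, endothelial and blood or immune markers stayed under 5.6 FPKM in every library.

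The family name was checked against the encoded proteins. Of the 177 genes, 172 encoded at least 1 stretch that matches the C2H2 finger pattern (Cys, 2 to 4 residues, Cys, 12 residues, His, 3 to 5 residues, His), and 165 encoded 2 or more. The median was 9 fingers, and ZNF462 had the most with 33. A single match was found in ZNF326, ZNF395, ZNF428, ZNF598, ZNF609, ZNF706 and ZNF830, and no match in ZNF185, ZNF330, ZNF503, ZNF703 and ZNF839. The name therefore covers 5 genes without the pattern, which were kept because the rule goes by symbol. A KRAB domain was matched in 80 genes, which had a median of 11 fingers, against 7 in the 97 genes without a match. A SCAN domain, which pairs zinc finger proteins with one another, was matched in 14 genes, 8 of them with KRAB as well. Chromosome 19 held 57 of the 177 genes (32.2%), against 7.04% of the protein-coding genes tested.

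A finger from each of 4 genes shows what unites the set, and how far members differ: ZNF267 and ZNF721, which had the largest differences among the KRAB genes, and ZNF146 and ZNF664, which are among the most abundant and have no KRAB match. Each run is 78 coding bases, 5′ to 3′ on the coding strand, from the last exon (GENCODE 29, GRCh38). Capitals mark the codons of the 2 cysteines and the 2 histidines, and the bases after the last capitals encode the linker to the next finger. They lie at chr16:31915393-31915470 on the plus strand in exon 4 of ZNF267, at chr4:443723-443800 on the minus strand in exon 3 of ZNF721, at chr19:36236660-36236737 on the plus strand in exon 3 of ZNF146 and at chr12:124012409-124012486 on the plus strand in exon 6 of ZNF664.
ZNF267: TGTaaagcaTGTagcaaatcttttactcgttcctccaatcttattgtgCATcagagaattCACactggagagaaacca
ZNF721: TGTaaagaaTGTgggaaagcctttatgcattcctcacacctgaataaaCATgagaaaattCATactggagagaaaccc
ZNF146: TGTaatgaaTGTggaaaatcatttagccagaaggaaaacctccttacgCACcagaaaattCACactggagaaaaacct
ZNF664: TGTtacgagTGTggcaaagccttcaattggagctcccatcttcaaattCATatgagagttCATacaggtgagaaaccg
The fingers of ZNF267 and ZNF721 were identical at 58 of 78 bases (74.4%), and those of ZNF146 and ZNF664 at 45 of 78 (57.7%). These shares include the parts that are alike by choice. Likeness between genes can leave a read without a unique gene. For each gene the transcript with the longest coding sequence was taken. Its 50-base stretches were sought on the same strand in the transcripts of other genes. Under 1% of them were shared with another gene in 124 of the 177 genes and over 10% in 16. The highest share, 41.7%, was in ZNF395. Parts of a gene outside that transcript were not covered. The share was 0.0918% for ZNF267, 4.22% for ZNF721, 5% for ZNF664 and 8.9% for ZNF576.

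Promoters from RefSeq (GRCh38.p14), each from 250 bases before to 50 after the start, were matched for 148 of the 177 genes. The ETS core CCGGAAG, the centre of the site of GABPA and other ETS activators, was present on either strand in 59 of these promoters (39.9%), against 18.2% of the promoters of other tested genes and 10.7% of all promoters. The letters ACTACAA, from the long site of the activator ZNF143, which is itself one of the 177, were present in 14 (9.46%), against 3.68% and 2.95%. The GC box GGGCGG was present in 67.6%, against 69.7% and 44.6%. The CCAAT box was present in 41.2%, against 36.1% and 35.7%, and the TATA box letters TATAAA in 2.7%, against 5.6% and 12%. All motifs were searched on both strands, and matches may overlap. A match says that the letters are there and does not show that a factor binds.

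The next promoters are shown because they carry the ETS core in 3 of the genes with the largest positive differences and in 1 with a negative one. This choice does not reflect how common the core was in either direction. It was also present in ZNF48, ZNF669 and ZNF670, which had negative differences. It was absent from the promoters of ZNF629, ZNF664, ZNF45 and ZNF41, which had positive ones. The promoters shown are those of ZNF267, ZNF134, ZNF551 and ZNF277. They lie at chr16:31873557-31873856 (ZNF267), chr19:57613992-57614291 (ZNF134), chr19:57681727-57682026 (ZNF551) and chr7:112206445-112206744 (ZNF277), all on the plus strand. Capitals mark every match to the searched motifs, the ETS core reading CCGGAAG or, on the other strand, CTTCCGG. In ZNF277 the ZNF143-type letters read TTGTAGT on the strand shown.
ZNF267: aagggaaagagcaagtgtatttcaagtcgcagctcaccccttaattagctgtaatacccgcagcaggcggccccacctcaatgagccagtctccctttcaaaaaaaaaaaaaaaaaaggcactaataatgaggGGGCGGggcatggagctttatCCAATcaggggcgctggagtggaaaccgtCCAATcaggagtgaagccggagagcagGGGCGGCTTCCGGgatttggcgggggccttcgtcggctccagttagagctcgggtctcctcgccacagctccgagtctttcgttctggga
ZNF134: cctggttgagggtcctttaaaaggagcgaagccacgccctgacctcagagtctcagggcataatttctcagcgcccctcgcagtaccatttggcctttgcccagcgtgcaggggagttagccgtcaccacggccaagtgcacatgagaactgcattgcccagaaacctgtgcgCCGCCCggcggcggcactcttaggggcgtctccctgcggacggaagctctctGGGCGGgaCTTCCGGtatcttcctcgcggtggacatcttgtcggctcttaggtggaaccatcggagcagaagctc
ZNF551: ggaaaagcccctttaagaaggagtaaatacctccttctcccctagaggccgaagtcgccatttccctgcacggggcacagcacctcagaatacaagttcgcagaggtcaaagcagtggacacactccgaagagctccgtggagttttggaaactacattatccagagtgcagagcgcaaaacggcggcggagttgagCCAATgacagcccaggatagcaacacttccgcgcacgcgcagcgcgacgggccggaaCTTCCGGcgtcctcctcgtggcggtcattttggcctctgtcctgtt
ZNF277: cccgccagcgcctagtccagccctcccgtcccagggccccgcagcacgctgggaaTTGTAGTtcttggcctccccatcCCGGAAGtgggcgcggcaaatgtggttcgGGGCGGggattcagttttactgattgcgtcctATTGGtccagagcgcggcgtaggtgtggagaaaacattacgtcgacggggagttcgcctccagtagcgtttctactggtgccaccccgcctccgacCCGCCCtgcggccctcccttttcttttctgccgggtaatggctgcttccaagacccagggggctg
The 59 genes with an ETS core had a median log2 fold change of 0.097 (si-NORAD over si-NC), and 44 of them had positive values. The 89 genes without it had a median of 0.051, with 53 higher. The 14 genes with the ZNF143-type letters had a median of -0.035 with 7 higher, against 0.062 with 90 of 134 higher without them. These are descriptions of overlapping ranges and were not tested.

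Levels spanned a wide range and most were low. The median over the 177 genes was 4.24 FPKM, with quartiles of 2.77 and 6.91 FPKM. Only 26 genes were above 10 FPKM, and 106 were below 5 FPKM. The genes with a KRAB match had a median of 2.96 FPKM, against 5.9 FPKM without one. ZNF146, a protein made almost wholly of fingers, was the most abundant at a mean of 98.7 FPKM. It was followed by ZNF768 at 30.7 FPKM, ZNF664 at 28.7 FPKM, ZNF622 at 28.4 FPKM, ZNF217 at 20.03 FPKM, ZNF579 at 19.6 FPKM, ZNF581 at 17.9 FPKM and ZNF281 at 17.5 FPKM. Just inside the bound lay ZNF576 at 2.001 FPKM, ZNF383 at 2.01 FPKM and ZNF552 at 2.02 FPKM. Just outside lay ZNF827 and ZNF527, both at 1.99 FPKM, and ZNF587 at 1.96 FPKM. ZNF616 is not a member, with a mean of 0.585 FPKM, and is given below only for comparison.

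None of the 177 genes passed the test between si-NORAD and si-NC at an adjusted p under 0.05 in the edgeR fit, in which 1 of 15515 genes did so (0.00645%, the 1 gene being higher; 0% were lower). The lowest adjusted p of a member was 0.196. At an unadjusted p under 0.05 there were 34 members, 24 higher and 10 lower in si-NORAD, which is 19.2% of them against 21.6% of all genes tested (9.51% higher and 12.1% lower). The median log2 fold change of the members was 0.061, against 0.0055 over all genes tested, and 114 members had a positive value and 63 a negative one. All 3 si-NORAD libraries lay above all 3 si-NC libraries in 28 members (15.8%; 12.7% of all genes) and below them in 12 members (6.78%; 12.7% of all genes). Both directions together held 40 members (22.6%), against 25.4% of all genes. The groups overlapped in the other 137. In these bulk libraries, fewer cells that make an RNA and less of it per cell cannot be told apart. Log2 fold changes ran from -0.55 for ZNF511 to 0.62 for ZNF618, with 2 members beyond 1.5-fold higher and 0 beyond 1.5-fold lower.

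**Figure D1:**
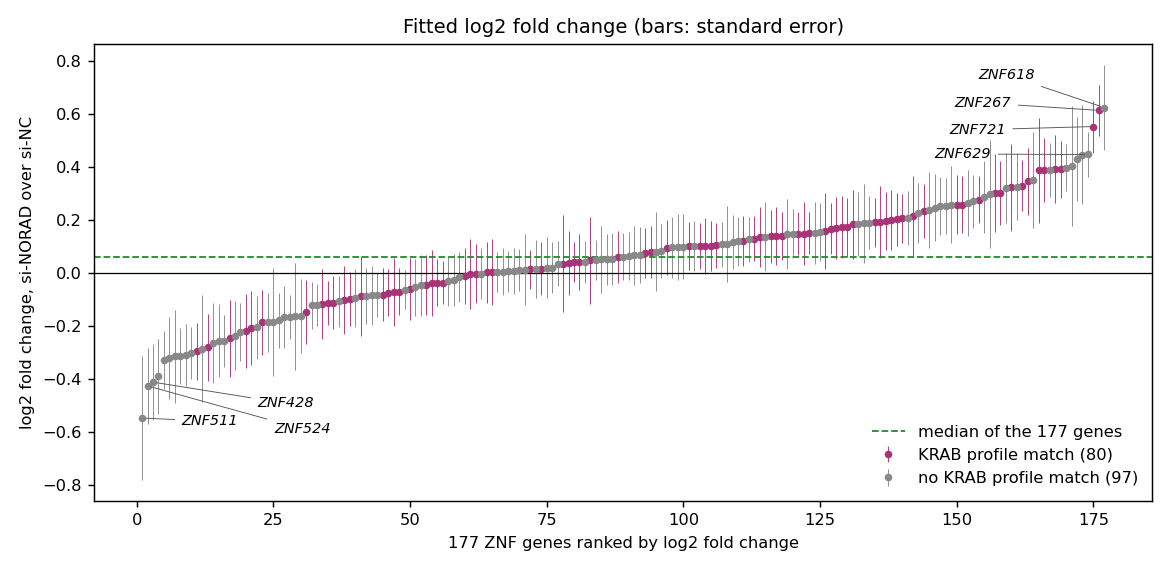
Log2 fold change (si-NORAD over si-NC) of the 177 ZNF genes, ranked, with the standard error as bars and genes with a KRAB match in purple. The values run from -0.55 (ZNF511) to 0.62 (ZNF618) around a median of 0.061, and 114 lie above 0.

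Other ways to test the same counts called some members, and these differed in how many. DESeq2 called 6 members, ZNF134, ZNF267, ZNF618, ZNF629, ZNF664 and ZNF721, and each was higher in si-NORAD. Over the 10618 genes with an adjusted p in DESeq2, 4% were called, 1.05% higher and 2.95% lower. The edgeR fit without the low-count filter called 17 members (9.6%), 14 higher and 3 lower. Over all 29476 genes that fit called 6.56%, 3% higher and 3.57% lower. Those genes include the low ones that the filter removes, while all 177 members passed it. The shares are therefore of unlike sets, and the members' share cannot be read as a surplus. Without si-NC 4, edgeR called 69 members, 46 higher and 23 lower, against 39.3% of all genes (19% higher and 20.3% lower). The members' 39% is close to that background.

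ZNF267 and ZNF721 were singled out, together with ZNF616, with earlier results of these data known, so their values are a description. ZNF267, a KRAB protein with 14 finger matches at chr16:31873758-31917357 (GRCh38, GENCODE 29, as for all gene positions below), measured 10.5, 9.94 and 10.6 CPM in si-NC 4, 5 and 6 and 15.1, 16.6 and 15.9 CPM in si-NORAD 4, 5 and 6. The lowest si-NORAD library lay well above the highest control, and si-NC 4 lay between the other 2 controls. Its mean was 1.60 ± 0.097 FPKM in si-NC and 2.56 ± 0.13 FPKM in si-NORAD (SD, n = 3 each), and its log2 fold change was 0.61 with a standard error of 0.098 (95% interval 0.39 to 0.83). It was 0.62 without si-NC 4 and 0.58 without si-NC 5 and si-NC 6. ZNF267 thus ranked second among the 177 genes by fold change and 172nd by level. Its si-NC mean was below the bound of 2 FPKM, so it passed the rule only through its si-NORAD level. Genes as low in si-NC without such a difference were left out, so the rank is no evidence of a response.

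ZNF721, a KRAB gene with 23 finger matches at chr4:425815-499156, measured 13.4, 14.9 and 13.7 CPM in si-NC 4, 5 and 6 and 19.1, 21.5 and 21.0 CPM in the si-NORAD libraries. The lowest si-NORAD library lay above the highest control, and the lowest control was si-NC 4. The log2 fold change was 0.55 with a standard error of 0.098, and it was 0.51 without si-NC 4 and 0.61 without si-NC 5 and si-NC 6. ZNF616, a KRAB gene with 21 finger matches at chr19:52113091-52139922, measured 2.20, 1.996 and 1.64 CPM in si-NC and 3.47, 3.88 and 3.85 CPM in si-NORAD. At this lower level, with 34 to 116 counts per library, its log2 fold change was 0.93 with a standard error of 0.17. With each library left out in turn the values ran from 0.58 to 0.65 for ZNF267, 0.51 to 0.60 for ZNF721 and 0.82 to 1.02 for ZNF616. The median of all members was 0.061, and these genes were picked with such values known.

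**Figure D2:**
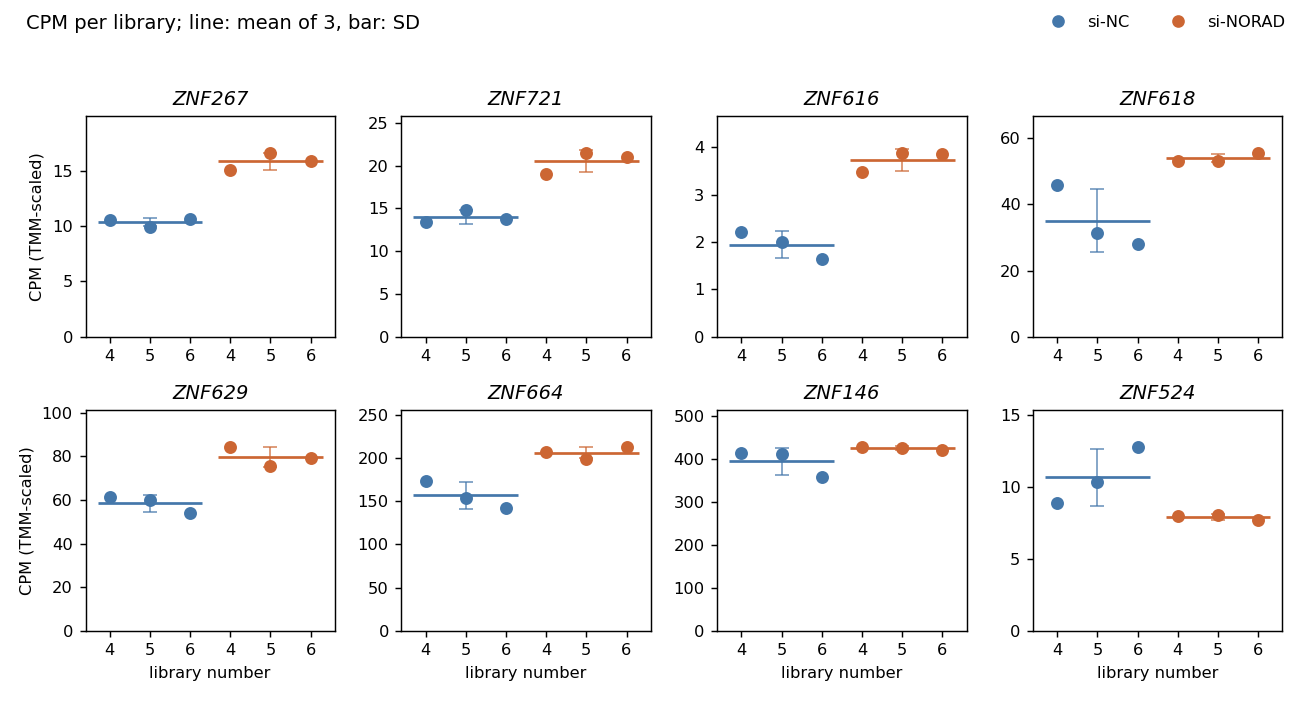
CPM in each library for 7 members and for ZNF616, on axes that start at 0, with si-NC in blue, si-NORAD in orange, a line at the mean of 3 libraries and a bar for the SD. The ZNF267 controls lie between 9.94 and 10.6 CPM and all 3 si-NORAD libraries at or above 15.1 CPM, while si-NC 4 of ZNF618, at 45.9 CPM, lies apart from the other controls.

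The remaining members with the largest positive differences among those whose groups did not overlap were ZNF618, ZNF629, ZNF462, ZNF664, ZNF45, ZNF41, ZNF134 and ZNF551. ZNF618, a partner of the methylcytosine-binding protein UHRF2, measured 45.9, 31.2 and 28.1 CPM in si-NC 4, 5 and 6 and 53.2, 53.2 and 55.5 CPM in si-NORAD. Its controls were spread widely, with si-NC 4 nearest to si-NORAD. The log2 fold change was 0.62 with a standard error of 0.16, 0.86 without si-NC 4 and 0.23 without si-NC 5 and si-NC 6. ZNF462, which has roles in development and chromatin organisation, followed the same pattern, at 34.3, 27.9 and 20.6 CPM in si-NC and 38.3, 37.3 and 35.9 CPM in si-NORAD. Its log2 fold change of 0.43 became 0.61 without si-NC 4 and 0.12 without the other 2 controls.

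ZNF629, with 19 finger matches and no KRAB match, varied little among its controls. It measured 61.5, 59.97 and 54.1 CPM in si-NC and 84.3, 75.4 and 79.5 CPM in si-NORAD. All si-NORAD libraries were higher, and the log2 fold change of 0.45 was 0.48 without si-NC 4 and 0.38 without the other 2. ZNF664, the third most abundant member, measured 174, 154 and 142 CPM in si-NC and 207, 199 and 213 CPM in si-NORAD. All si-NORAD libraries were above the controls, of which si-NC 4 was the nearest. The log2 fold change was 0.40 with a standard error of 0.090 and became 0.25 without si-NC 5 and si-NC 6.

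ZNF134 and ZNF551 lie near each other on chromosome 19, on the same strand, at chr19:57614233-57624723 and chr19:57681969-57717301, and are among the genes whose promoters are printed above. ZNF134 measured 23.7, 24 and 19.5 CPM in si-NC and 29.1, 29.9 and 28.9 CPM in si-NORAD (log2 fold change 0.39). ZNF551 measured 11.2, 10.8 and 9.0 CPM in si-NC and 13.0, 12.7 and 14.8 CPM in si-NORAD, also 0.39. In both genes si-NC 6 was the lowest library. The KRAB genes ZNF45, at chr19:43912629-43935278, and ZNF41, on the X chromosome, each had a log2 fold change of 0.39 as well. For ZNF45 the controls were 16.1, 13.4 and 13.0 CPM and the si-NORAD libraries 18.8, 18.5 and 18.4 CPM. For ZNF41 the controls were 14.3, 12.5 and 10.2 CPM and the si-NORAD libraries 15.8, 16.1 and 16.7 CPM. In ZNF45 and ZNF41 the highest control was si-NC 4, and without si-NC 5 and si-NC 6 the values were 0.21 and 0.17.

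The members with the largest negative differences among those whose groups did not overlap were ZNF524, ZNF428, ZNF576, ZNF48, ZNF277, ZNF706, ZNF394, ZNF628, ZNF669 and ZNF670. ZNF524, which binds telomeric repeats, measured 8.90, 10.3 and 12.8 CPM in si-NC and 8.03, 8.09 and 7.70 CPM in si-NORAD. The 3 si-NORAD libraries were alike and si-NC 4 lay next to them. The log2 fold change was -0.43 with a standard error of 0.14, and -0.16 without si-NC 5 and si-NC 6. ZNF428 measured 22.3, 31.7 and 32.97 CPM in si-NC and 22.2, 21.1 and 22.05 CPM in si-NORAD. Here si-NC 4 almost met the si-NORAD libraries, and the log2 fold change of -0.41 was -0.029 without si-NC 5 and si-NC 6. Its neighbour on chromosome 19, ZNF576 (chr19:43596392-43601157, with ZNF428 at chr19:43607219-43619874 on the other strand), measured 6.94, 7.496 and 9.39 CPM in si-NC and 5.93, 5.82 and 6.44 CPM in si-NORAD (log2 fold change -0.39). ZNF576 was the lowest member, at a mean of 2.001 FPKM, and passed the bound of 2 FPKM only through its si-NC level. Its place in this list is thus no evidence of a response.

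ZNF277, whose promoter is printed above, measured 30.5, 37.8 and 37.0 CPM in si-NC and 29.96, 26.9 and 27.7 CPM in si-NORAD. Its log2 fold change of -0.31 became -0.10 without si-NC 5 and si-NC 6. ZNF706 measured 56.1, 70.4 and 68.7 CPM in si-NC and 53.8, 53.5 and 51.0 CPM in si-NORAD (log2 fold change -0.30). For both genes the controls 5 and 6 were well above the 4 other libraries. The values of ZNF48, ZNF394 and ZNF628 were -0.33, -0.30 and -0.22, and -0.17, -0.10 and -0.15 without si-NC 5 and si-NC 6, where ZNF706 had -0.085 and ZNF576 -0.20. ZNF669 and ZNF670, KRAB genes that lie near each other on chromosome 1 (chr1:247099962-247104372 and chr1:247036784-247078755), had values of -0.22 and -0.21. These last 2 genes measured between 3.89 and 5.68 CPM in all libraries, and their intervals held 0. Without si-NC 5 and si-NC 6 the value of ZNF669 was -0.044.

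**Figure D3:**
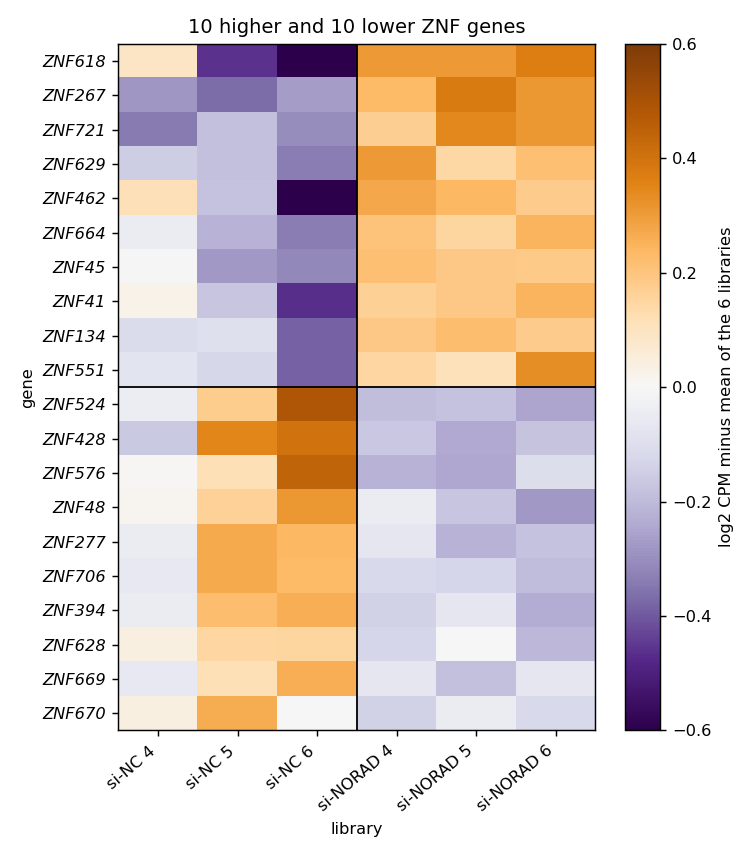
Log2 CPM in each library minus the mean of the 6 libraries, for the 10 members with the largest positive and the 10 with the largest negative differences whose groups did not overlap. ZNF267 and ZNF721 are low in all 3 controls, while in most other rows si-NC 4 is paler than si-NC 6.

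Among the 8 most abundant members, ZNF664 alone had groups that did not overlap. ZNF146 measured 413, 411 and 357 CPM in si-NC and 427, 426 and 419 CPM in si-NORAD, with a log2 fold change of 0.11 (95% interval -0.085 to 0.30). Only si-NC 6 was clearly below the rest, and without it the value was 0.040. ZNF622, which acts in the maturation of the large ribosomal subunit, measured 42.7, 55.3 and 56.7 CPM in si-NC and 46.0, 45.9 and 44.1 CPM in si-NORAD, so that si-NC 4 was the lowest library of all. Its value was -0.19, and 0.087 without si-NC 5 and si-NC 6. ZNF217, an oncogene amplified in breast and other cancers, had a value of 0.21 and ZNF281, a regulator linked to epithelial-mesenchymal transition, one of 0.25. In ZNF217 si-NC 4, at 132 CPM, lay inside the si-NORAD range of 131 to 135 CPM. Without si-NC 4, edgeR called ZNF217, ZNF281 and ZNF622, in a fit that called 39.3% of all genes. Their values there were 0.32, 0.38 and -0.30. Without si-NC 5 and si-NC 6 those of ZNF217 and ZNF281 were 0.0015 and 0.028. For ZNF768, ZNF579 and ZNF581 the values were -0.12, -0.054 and -0.32. They were -0.17, -0.15 and -0.47 without si-NC 4, where ZNF768 and ZNF581 were called, and -0.012, 0.14 and 0.045 without si-NC 5 and si-NC 6. Leaving out si-NC 6 alone gave 0.064 for ZNF579 and -0.13 for ZNF581.

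Gene length went with the direction of the difference. The 59 shortest members (up to 3905 bases of the length used for FPKM) had a median log2 fold change of -0.12 with 14 higher, the 59 of middle length 0.10 with 49 higher, and the 59 longest (over 6204 bases) 0.15 with 51 higher. Protein-coding genes outside the set had medians of -0.17, -0.0088 and 0.13 in the same length ranges. Without si-NC 4 the members' medians were -0.17, 0.16 and 0.19. Without si-NC 5 and si-NC 6 they were -0.0038, 0.0086 and 0.036, with 25, 33 and 40 higher. Across the 177 genes Spearman's rho between length and log2 fold change was 0.54, and across all genes tested it was 0.38. Genes of 1 library share its depth and handling and are not independent. The middle range is where the members' median lay farthest from that of other genes.

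**Figure D4:**
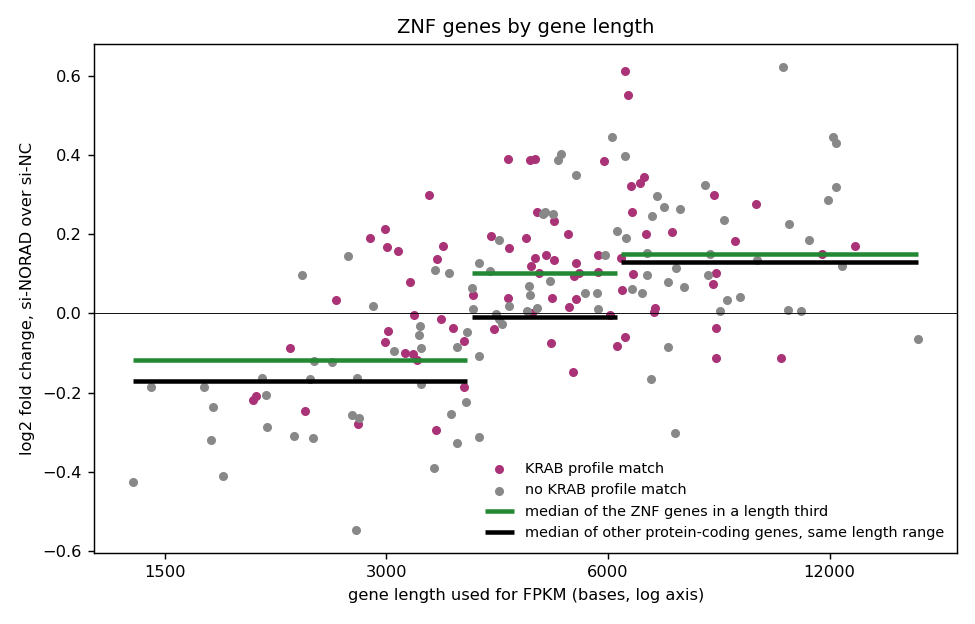
Log2 fold change of each ZNF gene against gene length (log axis), with green lines for the medians of the members in 3 length ranges and black lines for other protein-coding genes in the same ranges. The green lines lie at -0.12, 0.10 and 0.15 and the black lines at -0.17, -0.0088 and 0.13.

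The same length pattern separated the control libraries from one another. Relative to the mean of the 6 libraries, the short members had median log2 CPM of -0.049 in si-NC 4, 0.094 in si-NC 5 and 0.13 in si-NC 6. The long members had 0.029, -0.090 and -0.18. In the si-NORAD libraries the short members lay between -0.093 and -0.046 and the long members between 0.055 and 0.11. Thus si-NC 4 had the sign of the si-NORAD libraries in both length classes. In 127 of the 177 genes si-NC 4 was nearer to the si-NORAD mean than was the mean of the 2 other controls. The same count over all genes is not given here. All genes tested showed the same displacement. Their short range had medians of -0.068, 0.099 and 0.18 in si-NC 4, 5 and 6, and their long range 0.061, -0.080 and -0.185. With the trend over length removed from each library, rho was 0.065 in the members and the medians by length became 0.0026, 0.11 and 0.028. In that fit 0 members were called, against 0.0387% of all genes, and the log2 fold changes of ZNF267 and ZNF721 were 0.56 and 0.49. It moved other genes by over 1.5 times: ZNF462 from 0.43 to 0.24, ZNF524 from -0.43 to -0.22, ZNF428 from -0.41 to -0.21, ZNF669 from -0.22 to -0.030 and ZNF670 from -0.21 to -0.027. Among the most abundant members ZNF581 moved from -0.32 to -0.11, while ZNF622, ZNF768 and ZNF579 changed sign, to 0.019, 0.036 and 0.041. ZNF207, the longest member, moved from -0.063 to -0.34. ZNF618, ZNF629, ZNF664, ZNF45, ZNF41, ZNF134 and ZNF551 had values of 0.47, 0.40, 0.35, 0.42, 0.40, 0.38 and 0.40.

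**Figure D5:**
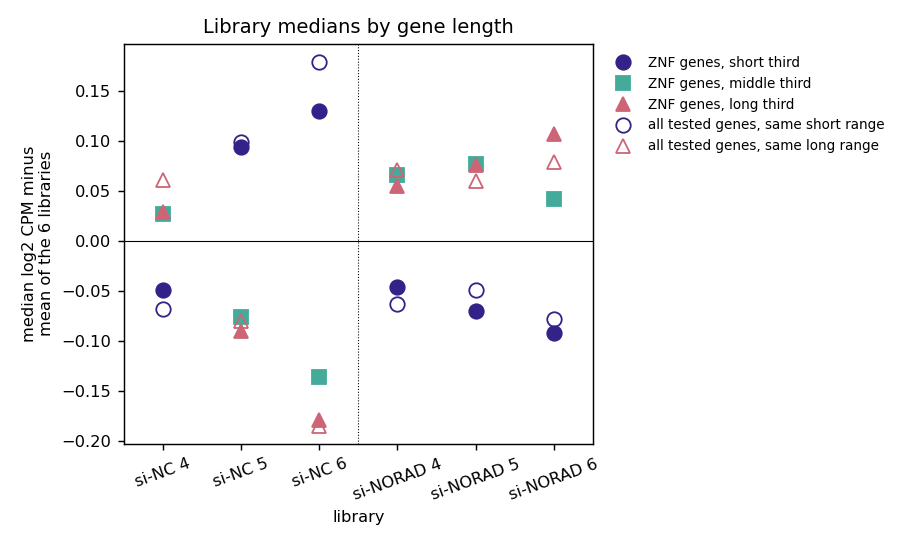
Median log2 CPM in each library minus the mean of the 6 libraries, for ZNF genes by length class (filled symbols) and for all tested genes in the short and long ranges (open symbols). The short ZNF genes lie at 0.13 in si-NC 6 and -0.049 in si-NC 4, and the long ones at -0.18 and 0.029.

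The 80 genes with a KRAB match had a median log2 fold change of 0.10 with 55 higher, and the 97 without one 0.041 with 59 higher. These medians were 0.11 and 0.062 without si-NC 4, and 0.059 and -0.0027 without si-NC 5 and si-NC 6. The si-NORAD libraries all lay above the controls in 18 KRAB genes (22.5%) and below them in 4 (5%). In the other members these were 10 (10.3%) and 8 (8.25%), and over all genes tested the shares were 12.7% and 12.7%. Among the 59 longest genes the medians were 0.16 for KRAB genes and 0.14 for the others, in the middle range 0.12 and 0.066, and among the 59 shortest -0.044 and -0.18. The KRAB genes among the shortest had a median length of 3182 bases and the others one of 2710 bases. On chromosome 19 the 34 KRAB genes had a median of 0.086 and the 23 others one of -0.084, and the latter were short, with a median length of 3851 bases. The 14 SCAN genes had a median of 0.048. No difference between these classes was tested.

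Spread within the groups was unequal. The median coefficient of variation of a member was 10.7% within si-NC and 4.39% within si-NORAD, and over all genes tested it was 13.6% and 5.08%. The summed level of the 177 genes was 1166, 1087 and 1062 FPKM in si-NC 4, 5 and 6, and 1192, 1185 and 1182 FPKM in si-NORAD. It was thus highest in the si-NORAD libraries, and among the controls highest in si-NC 4.

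Pumilio sites are of interest because NORAD binds Pumilio proteins. The motif TGTANATA was present in the 3' untranslated region of 51 of the 176 members with a region of at least 20 bases (28.98%), against 29.6% of the protein-coding genes tested. ZNF148, a regulator that binds G-rich promoter elements, had 6 matches, the most of any member, and ZNF721 and ZNF618 had 1 each. The windows below are 24 bases, 5′ to 3′ on the coding strand (GENCODE 29, GRCh38), with the motif in capitals. They lie at chr3:125232311-125232334 and chr3:125228819-125228842 on the minus strand (ZNF148), chr4:440454-440477 on the minus strand (ZNF721) and chr9:114050480-114050503 on the plus strand (ZNF618).
ZNF148 first site: aaaaaaagTGTAAATAatactggc
ZNF148 next site shown: taccatgcTGTAAATAtggttcat
ZNF721: aatttcctTGTATATAagttgaaa
ZNF618: ctggtgcgTGTACATAcgcctgtg
The 51 genes with a motif had a median log2 fold change of 0.12 with 45 higher, and the 125 without one 0.035 with 69 higher. Over all genes tested, the 3832 with a motif had a median of 0.0716 with 2401 higher. The 9118 without one had a median of -0.0401 with 4014 higher. The contrast was thus not particular to the members, and it was not tested. Without si-NC 5 and si-NC 6 the members' medians were 0.036 and 0.0086. The members with a motif were longer, at a median of 6481 against 4274 bases, and over all genes tested these lengths were 6852 and 4562 bases. The medians were 0.13 with and 0.15 without a motif among the 59 longest genes, 0.13 and 0.082 in the middle range, and 0.10 (5 genes) and -0.12 (53 genes) among the shortest, and with the length trend removed they were 0.060 and 0.030 over all lengths. ZNF148 measured 38.2, 34.8 and 28.2 CPM in si-NC and 40.2, 38.5 and 39.7 CPM in si-NORAD (log2 fold change 0.23), and without si-NC 5 and si-NC 6 the value was 0.047. ZNF267, with one of the largest differences, had 0 motifs.

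Members with well described functions are set out next, chosen for their functions after their values had been seen. ZNF598, a ubiquitin ligase that senses collided ribosomes, measured 67.4, 62.5 and 69.3 CPM in si-NC and 68.0, 68.1 and 69.8 CPM in si-NORAD, with overlapping groups and a log2 fold change of 0.048. ZNF207, which acts in spindle assembly, had a value of -0.063, and ZNF346, which binds double-stranded RNA, one of 0.068. The promoter activators ZNF143 and ZNF76, which share a binding site, had values of -0.0024 and 0.097. In each of these 5 genes the groups overlapped.

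Of 6 further genes with roles in chromatin, chosen in the same way, ZNF274, which brings SETDB1 to its targets, had a log2 fold change of 0.075, ZNF638, which acts in the silencing of unintegrated retroviral DNA, 0.12, and ZNF644, a partner of the H3K9 methyltransferase G9a, 0.066. ZNF592, ZNF687 and ZNF532, which form a complex with the reader ZMYND8, had values of 0.32, 0.19 and 0.29, and of 0.22, 0.14 and 0.10 with the length trend removed. In ZNF592 the controls were 84.2, 65.0 and 58.5 CPM and the si-NORAD libraries 89.8, 86.4 and 83.8 CPM. In ZNF532 they were 88.1, 68.2 and 58.4 CPM and 88.4, 83.5 and 90.2 CPM. In both genes si-NC 4 lay within the si-NORAD range and the 2 other controls below it. Without si-NC 5 and si-NC 6 the values were 0.045 for ZNF592, 0.016 for ZNF687 and -0.012 for ZNF532, and those of ZNF638 and ZNF644 were 0.025 and -0.14.

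Of the 17 genes for the KRAB co-repressor machinery, 9 had a positive and 8 a negative log2 fold change, with a median of 0.11, and 0 were called. The si-NORAD libraries were all above the controls in 4 (23.5%) and all below in 2 (11.8%). Over all genes tested these shares were 12.7% and 12.7%. Without si-NC 4, edgeR called 11 of the 17, in a fit that called 39.3% of all genes. Single calls in that fit, given below, are thus common. TRIM28, the co-repressor that KRAB binds, measured 651, 713 and 768 CPM in si-NC and 666, 658 and 625 CPM in si-NORAD, a value of -0.13 with overlapping groups. It was -0.19 without si-NC 4, where edgeR called it, and -0.0012 without si-NC 5 and si-NC 6. SETDB1 had a value of 0.12, which was 0.27 without si-NC 4 and changed sign, to -0.055, without si-NC 6. CBX1 had one of -0.024. CBX3, an HP1 protein, measured 278, 339 and 333 CPM in si-NC and 244, 249 and 252 CPM in si-NORAD. All its si-NORAD libraries were lower, with a value of -0.35 (adjusted p of 0.196, and of 0.0266 with DESeq2). CBX5, another HP1 protein, lay the other way, at 189, 168 and 167 CPM in si-NC and 210.0, 197 and 220 CPM in si-NORAD, with a value of 0.26. With the length trend removed CBX3 had a value of -0.33 and CBX5, a long gene of 15040 bases, one of 0.012. Without si-NC 4 the values were -0.44 and 0.32, both called by edgeR, and without si-NC 5 and si-NC 6 they were -0.17 and 0.15. The groups did not overlap either in ATF7IP, CHD3 and FAM208A, with values of 0.36, 0.28 and 0.27, which were 0.14, 0.13 and 0.12 with the length trend removed. Without si-NC 4 these were 0.48, 0.36 and 0.37, all called by edgeR, and without si-NC 5 and si-NC 6 they were 0.14, 0.14 and 0.090.

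ZNF genes below 2 FPKM were compared only to place the members. Of these 243 genes, 182 were tested, and their median log2 fold change was 0.16 with 138 higher. The si-NORAD libraries were all above the controls in 38 of them (20.9%; 12.7% of all genes) and all below in 4 (2.20%; 12.7% of all genes). In the middle length range their median was 0.17 and that of the members 0.10. The 60 genes of other C2H2 families (ZBTB, ZSCAN, ZKSCAN, ZFP, KLF, SP and PRDM) with at least 2 FPKM had a median of 0.11 with 42 higher. No difference between these sets was tested.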

How the data were processed

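The 6 libraries were grouped by the labelled treatment. Per the labels' protocols, RNA was depleted of ribosomal RNA and made into directional libraries. HTSeq 0.6.1, HISAT2, FastQC and the build GRCh38 are named per the submitters' processing notes. The sources used here do not say whether counting used strand, so overlapping genes on opposite strands may share reads. The authors deposited 1 table of unnormalized whole-number read counts and FPKM values per gene. The gene length used here is the ratio of count to FPKM, which was the same in all libraries within 0.1%. The table had 0 columns of other samples.

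Counts were tested with edgeR 4.0.16 (R 4.3.3): filterByExpr (15515 of 29476 genes), TMM scaling and the two-sided quasi-likelihood F test, with Benjamini-Hochberg adjustment over all genes and calls at 0.05. Alternatives were DESeq2 1.42.0, limma 3.58.1 on log2(FPKM + 1) and log2(FPKM + 0.1), RLE and upper quartile scaling, no filter, removal of the length trend (loess, span 0.3), the replicate number as a block, other level bounds and left-out libraries. On simulated data of 13737 genes for this comparison, edgeR recovered 65 of 100 genes changed 1.5-fold and 90 of 100 changed 2-fold, with 6 false calls.

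Fingers, KRAB and SCAN domains (HMMER 3.4, E-value up to 1e-05) and Pumilio motifs came from GENCODE 29, to which all 29476 IDs matched, and promoters from RefSeq. The members and lists were chosen with earlier results of these data known. Named genes are ZNF267, ZNF721 and ZNF616, any member called in the edgeR fit (0), up to 10 members in each direction with the largest log2 fold change among those whose groups did not overlap, the 8 most abundant, the 3 on each side of the level bound, TRIM28, SETDB1 and the CBX genes, and NORAD. Others were chosen after their values were seen. The simulation held no difference among the controls. Precision of a value rests on 3 libraries per group and on at least 73 counts per member and library. The values of 1 gene of the co-repressor list are not reported here.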

Additional observations from a re-analysis of the deposited data

How the results depend on the processing

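Over all genes, 1935 were called without the low-count filter, 425 with DESeq2, 3 with limma on log2(FPKM + 1), 3 on log2(FPKM + 0.1), 6 with the length trend removed and 0 to 6251 with 1 library left out, 6251 without si-NC 4. Of the ZNF members 17 were called without the filter, 6 with DESeq2 and 0 to 69 with 1 library left out, 69 without si-NC 4. Of the 17 co-repressor genes 2, 1 and 0 to 11 were called, 11 without si-NC 4. Over all genes the shares called were 6.56% of 29476 without the filter, low genes included, 4% of 10618 with DESeq2 and 39.3% without si-NC 4. Members whose groups did not overlap numbered 50 to 111 with 1 library left out, or 28.2% to 62.7% of them against 30.1% to 60.1% of all genes, the highest without si-NC 4; fewer libraries leave less room for overlap. They numbered 15 (21.1%) with a bound of 5 FPKM, which leaves 71 genes. The share of all genes at that bound is not given here. The member median was 0.10 on log2(FPKM + 1), 0.12 on log2(FPKM + 0.1), 0.046 to 0.096 with 1 library left out and 0.014 without si-NC 5 and si-NC 6. The co-repressor median was 0.012 with the length trend removed, -0.0030 to 0.19 with 1 library left out, lowest without si-NC 6, and -0.0075 without si-NC 5 and si-NC 6. The median of other C2H2 families was -0.019 without si-NC 5 and si-NC 6. On log2(FPKM + 1), which understates low genes, ZNF267 had 0.45, ZNF721 0.45 and ZNF616 0.36, and ZNF616 had 0.75 without si-NC 5 and si-NC 6. NORAD had -0.35 (adjusted p of 0.0109 with edgeR) without the filter and -0.23 (0.00757) without si-NC 4, over left-out libraries -0.42 to -0.23. The cause of the other moves was not tested.

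With the replicate number as a block, 2 genes and 0 members were called and the member median was 0.063. Deviations from the group means had correlations of -0.029, -0.020 and -0.065 between same-numbered libraries. Between libraries of unlike number they ran from -0.044 to 0.069. Same-numbered libraries were thus no more alike by this measure. With so few libraries per group it cannot settle whether they shared a culture or a day. Effect sizes only are given without si-NC 5 and si-NC 6. Low genes are limited by counts: ZNF616 had as few as 34 counts in a library.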
